A study of Homo sapiens with 3 samples.

Results

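The library of subclone 2, a human hepatocellular carcinoma line directed to lung and lymph node, was compared with that of subclone 1, a line directed to the lung alone. Genes were matched by Entrez number between the RPKM values of the 2 libraries, and a gene without a row in a library was set to 0. RPKM is the number of reads of a gene divided by its length and by the reads of the library, so levels of different genes can be compared. The comparison covered the 11370 of 16149 genes whose mean RPKM over the parent and both subclones was at least 1. The set of 3 libraries held 1 each of the parent, subclone 1 and subclone 2, all grown in DMEM culture. The labels give HCCLM3 as the line of all 3 and describe the parent as of low metastatic ability, subclone 1 as metastatic to lung, and subclone 2 as metastatic to lung and celiac lymph node. The study's methods describe the parent instead as a highly metastatic, red fluorescent derivative of HCCLM3, and describe subclones grown from single cells of lung or lymph node metastases in nude mice. Which of the study's lines was sequenced as each subclone is not named in the labels or the paper. The study also grew lines directly from the metastases before single-cell dilution, so whether each subclone is a single clone is not known. With 1 library per line, no difference between the lines was tested, and all differences below are between libraries.

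A carcinoma cell that leaves the liver meets a different matrix and endothelium in the lung than in a lymph node. It attaches through integrins and immunoglobulin-like adhesion molecules, and matricellular proteins such as SPARC change how cells bind to collagen and fibronectin. Hepatocellular carcinoma cells also keep part of the hepatocyte programme, the secretion of albumin, transferrin and apolipoproteins under the control of factors such as HNF4A and FOXA1.

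The reads behind each value were recovered from the RPKM, since the 3 values of a gene stand in ratios of whole numbers. They gave 4609696 reads for subclone 1, 4725150 for subclone 2 and 4488825 for the parent, and 98.9% of the 11370 genes could be given whole reads. Intervals are exact 95% intervals from these reads (Clopper-Pearson for folds, Poisson for levels). They cover counting error only, as reads were not told apart by molecule and culture-to-culture spread was not measured. In such bulk libraries, fewer cells of a kind cannot be told apart from less RNA per cell. Log2 ratios are of RPKM plus 0.1, a pseudocount that understates the change of weakly expressed genes, and folds are plain ratios of RPKM.

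Subclone 2 exceeded subclone 1 by 2-fold or more in 161 of the 11370 genes (1.42%) and fell short of it by as much in 158 (1.39%). The median log2 ratio of all 11370 genes was 0.03, and 91.1% of them lay within 1.5-fold. The counting interval of the fold lay wholly above 1 for 115 of the 161 higher genes and wholly below 1 for 119 of the 158 lower genes. It lay wholly past 2-fold for 30 and 28 of them. Over all 11370 genes, the interval lay above 1 for 1283 (11.3%) and below 1 for 951 (8.36%), the background for the interval counts of the gene lists. Changes of at least 4-fold numbered 29 higher and 42 lower, and changes of at least 8-fold 14 higher and 19 lower. The share of genes that differed 2-fold went from 7.28% at a mean RPKM of 1 to 5 down to 0.614% at 100 or more, where 4 genes were higher and 0 lower. The split between higher and lower depended on the scale: the share of higher genes among those 2-fold different was 50.5% on the deposited values, 64.1% after division by ACTB (beta-actin) and 62.7% after division by GAPDH, a glycolytic enzyme. Both divisors were themselves lower in subclone 2, with log2 ratios of -0.13 for ACTB and -0.12 for GAPDH, the latter 0.0080 when taken over ACTB, and each moved the median log2 ratio of all genes by 0.12.

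**Figure D1:**
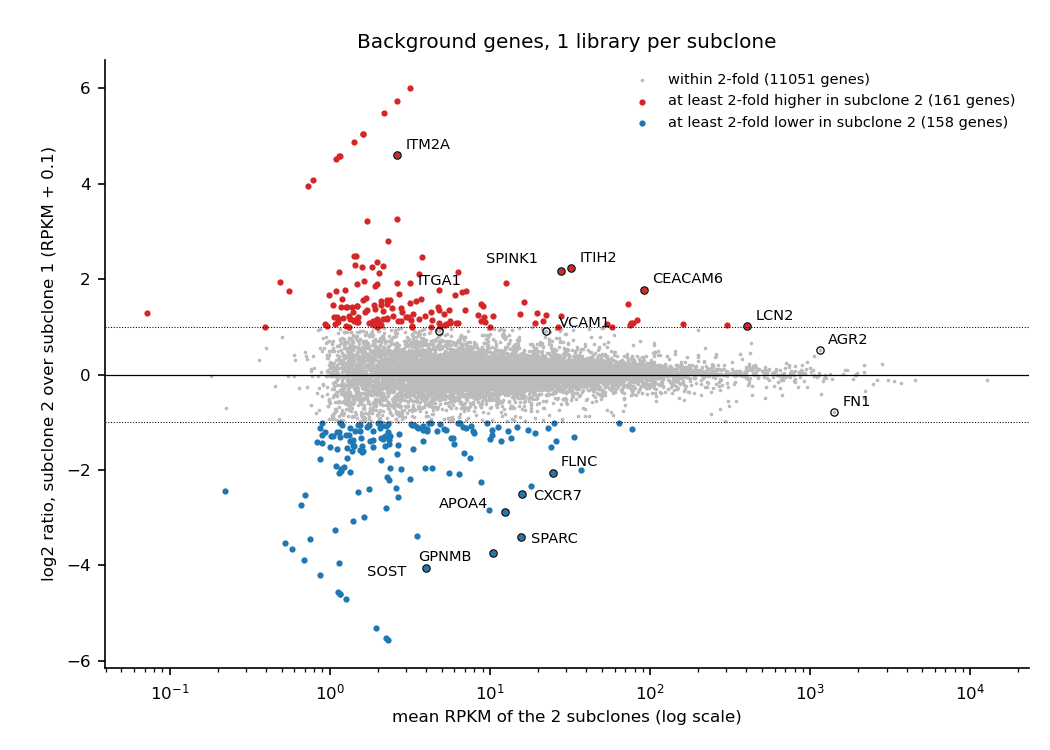
Each point is 1 of the 11370 genes, with the mean RPKM of the subclones on a log axis against the log2 ratio (RPKM plus 0.1, positive where subclone 2 is higher); dotted lines mark 2-fold. Red points are the 161 genes at least 2-fold higher and blue points the 158 at least 2-fold lower, circles mark named genes, and FN1 and AGR2 stand at high RPKM within 2-fold.

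SPARC, a secreted glycoprotein that binds collagen, was the marker that differed most. Its level was 3.22 RPKM in the parent, 28.5 RPKM in subclone 1 and 2.60 RPKM in subclone 2, from 46, 417 and 39 reads. Subclone 1 stood alone, 10.96-fold above subclone 2 (interval 7.88 to 15.6), while the parent and subclone 2 were close. On the log2 scale subclone 2 was at -3.40 relative to subclone 1, where 15 of the 11370 genes had a lower ratio.
APOA4, an apolipoprotein of lipid-carrying particles, followed the same order of subclones. It had 0.610 RPKM in the parent (3 reads), 21.99 RPKM in subclone 1 (111 reads) and 2.90 RPKM in subclone 2 (15 reads). The fold of subclone 1 over subclone 2 was 7.59 (4.41 to 14.01), a log2 ratio of -2.88. Subclone 2 lay between the other lines, nearer to the parent.
VCAM1 encodes a cell surface ligand of integrin alpha4beta1 that endothelium shows to leukocytes. It stood in the order parent, subclone 1, subclone 2 from low to high, with 2.35 RPKM in the parent, 15.6 RPKM in subclone 1 and 29.4 RPKM in subclone 2 (34, 231 and 447 reads). Subclone 2 was 1.89-fold above subclone 1 (1.61 to 2.22), a log2 ratio of 0.91.
ITGA1, the alpha1 chain of a collagen- and laminin-binding integrin, had the same order at a lower level. Its values were 1.07 RPKM in the parent, 3.29 RPKM in subclone 1 and 6.29 RPKM in subclone 2 (23, 73 and 143 reads). The fold was 1.91 (1.43 to 2.57), so both VCAM1 and ITGA1 missed the 2-fold threshold with intervals that reached past it. Of the 11370 genes, 199 had a higher ratio than VCAM1 and 198 a higher one than ITGA1.
The 4 markers therefore fell into a pair that was high in subclone 1 and a pair that was highest in subclone 2.

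**Figure D2:**
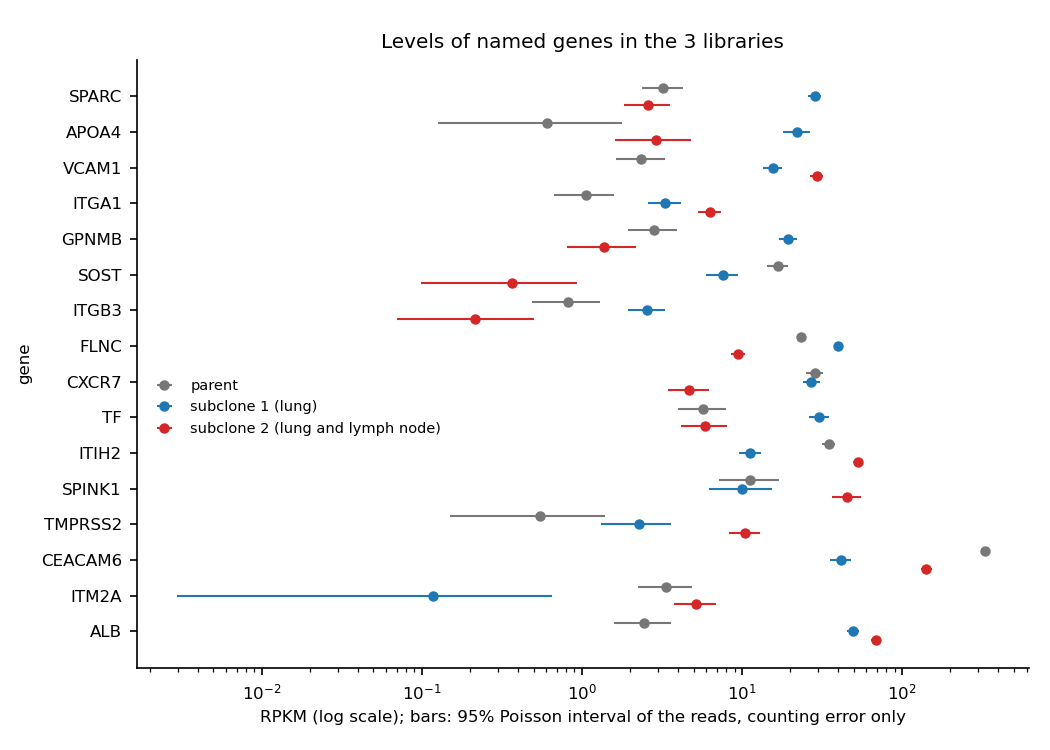
Levels of 16 named genes in RPKM on a log axis, in the parent (grey), subclone 1 (blue) and subclone 2 (red), 1 library each; bars are 95% Poisson intervals of the reads and cover counting error only. SPARC, APOA4, GPNMB and ITGB3 are highest in subclone 1, VCAM1 and ITGA1 highest in subclone 2, and ITM2A rests on 1 read in subclone 1.

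The promoters of VCAM1 and SPARC are shown as those of the most strongly expressed marker with a higher level in subclone 2 and of the marker with the lowest ratio. The sequences are the 250 bases before the annotated start, from RefSeq on GRCh38.p14, read on the strand of the gene; the RPKM were made on hg19. Capitals mark matches, on either strand, to TATAA (the core of a TATA box) and GGGNTTNCC (the core shared by many NF-kB sites, chosen with the VCAM1 sequence in view).
VCAM1 (chr1:100719492-100719741, plus strand): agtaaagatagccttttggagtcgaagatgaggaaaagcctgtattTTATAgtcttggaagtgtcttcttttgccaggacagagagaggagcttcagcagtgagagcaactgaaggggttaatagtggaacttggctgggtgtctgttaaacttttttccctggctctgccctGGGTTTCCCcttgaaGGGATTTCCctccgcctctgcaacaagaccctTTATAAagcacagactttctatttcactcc
SPARC (chr5:151686916-151687165, minus strand): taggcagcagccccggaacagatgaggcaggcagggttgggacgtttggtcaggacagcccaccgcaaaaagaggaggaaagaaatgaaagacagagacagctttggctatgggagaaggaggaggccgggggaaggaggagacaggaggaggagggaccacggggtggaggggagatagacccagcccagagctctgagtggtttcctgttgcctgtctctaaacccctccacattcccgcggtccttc
The VCAM1 stretch held GGGNTTNCC at 77 and 62 bases before the start and TATAA at 29 bases before it, where matches on the 2 strands overlap, with a further match of TATAA on the reverse strand at 204 bases. No match to these motifs, nor to GGGCGG (GC box), TGACTCA (AP-1) or TGTTTAC (forkhead), was in the windows of SPARC, APOA4 and ITGA1. As GGGNTTNCC was chosen with VCAM1 in view, its absence from the other windows is no contrast with VCAM1. Other forms of NF-kB sites were not searched. Among all 27305 RefSeq promoters of this length 4.70% held GGGNTTNCC and 19.6% held TATAA. Promoters were at hand for 9235 of the 11370 genes, of which 5.51% held GGGNTTNCC and 10.3% TATAA. Of the 99 promoters of higher genes 5.05% held GGGNTTNCC and 26.3% TATAA, and of the 102 of lower genes 5.88% and 19.6%. TGTTTAC was in 1.88% of the promoters of the 11370 genes, in 3.03% of those of higher genes and in 2.94% of those of lower genes. These matches describe letters in a window and no binding was measured.

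Among genes with at least 5 RPKM in the higher subclone, SOST and GPNMB had the lowest log2 ratios, followed by SPARC and MYL9. SOST, a secreted antagonist of Wnt signalling, had 16.8 RPKM in the parent, 7.57 RPKM in subclone 1 and 0.365 RPKM in subclone 2, the last from 4 reads. It was 20.8-fold lower in subclone 2 than in subclone 1 (7.80 to 78.0). GPNMB, a transmembrane glycoprotein that can be shed, had 2.81 RPKM in the parent, 19.5 RPKM in subclone 1 and 1.37 RPKM in subclone 2. Subclone 1 exceeded subclone 2 by 14.2-fold (8.79 to 24.3), and as for SPARC it was subclone 1 that stood apart from the parent. CLDN2, a pore-forming claudin of tight junctions, had 7.11, 17.3 and 2.34 RPKM in the parent, subclone 1 and subclone 2, a 7.38-fold difference between the subclones (5.17 to 10.8). Here the parent lay between the subclones. CXCR7, now named ACKR3, is an atypical receptor that takes up CXCL12. It had 28.5 RPKM in the parent, 27.2 RPKM in subclone 1 and 4.71 RPKM in subclone 2. The parent and subclone 1 were alike and subclone 2 was 5.78-fold below subclone 1 (4.23 to 8.06). ENG, the TGF-beta co-receptor endoglin, had 0.627, 14.6 and 2.98 RPKM and was 4.90-fold lower in subclone 2 (3.54 to 6.91). FLNC, a filamin that cross-links actin, had 23.4, 39.8 and 9.48 RPKM, from 1677 reads in subclone 1 and 410 in subclone 2. Its fold of 4.19 had the narrow interval 3.76 to 4.68. Others of the 15 lowest ratios were MYL9 (myosin light chain; 6.44 against 0.524 RPKM, 12.3-fold lower on 36 and 3 reads), TF (transferrin), NEU4 (a sialidase; 5.27 against 1.08 RPKM), OLFML3 (10.4 against 2.40 RPKM), BIRC7 (an inhibitor of apoptosis; 9.03 against 2.08 RPKM) and SYNGR4 (59.5 against 14.8 RPKM). SNORA67, also among them, rested on 4 reads and 1 read.

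Under the same limit of 5 RPKM, the highest log2 ratio after those of the short RNAs SNORD16 and SNORA32, with 3 reads each, was that of ITM2A. ITM2A, a membrane protein of cartilage and T-cell differentiation, had 3.37 RPKM in the parent, 0.117 RPKM in subclone 1 (1 read) and 5.15 RPKM in subclone 2 (45 reads). The fold of 43.9 had the interval 7.49 to 1772 because of the single read. RASD1, a Ras-like protein induced by dexamethasone, had 14.98, 1.08 and 6.42 RPKM, 5.96-fold higher in subclone 2 than in subclone 1 (2.92 to 13.7). In ITM2A subclone 1 alone lay below the parent, whereas in RASD1 both subclones did. ITIH2, a heavy chain of the hyaluronan-binding inter-alpha-trypsin inhibitor, had 34.8, 11.3 and 53.2 RPKM in the parent, subclone 1 and subclone 2. Its fold of 4.73 (3.99 to 5.62) rested on 166 and 804 reads. SPINK1, a secreted trypsin inhibitor, had 11.3, 10.03 and 45.2 RPKM and was 4.51-fold higher (2.79 to 7.61). TMPRSS2, a transmembrane serine protease of epithelia, had 0.548, 2.27 and 10.4 RPKM and was 4.59-fold higher (2.70 to 8.27). In SPINK1 subclone 2 stood apart from the other lines, whereas in TMPRSS2 the 3 lines stood in steps, the log2 ratio being 1.87 from the parent to subclone 1 and 2.15 from there to subclone 2. CEACAM6, a carcinoembryonic antigen-related adhesion molecule, had 328, 41.3 and 142 RPKM. Subclone 2 was 3.43-fold above subclone 1 (2.89 to 4.10) and both lay under the parent. Also among the 15 highest ratios were RAMP1, a partner of calcitonin-type receptors (5.18 against 19.97 RPKM), the amino acid transporter SLC43A1 (1.27 against 5.05 RPKM) and TFF1, a trefoil peptide (2.14 against 7.499 RPKM, on 5 and 18 reads). ADH1C, an alcohol dehydrogenase (3.19 against 11.03 RPKM), FGF13 (3.05 against 10.3 RPKM), TC2N (2.85 against 9.21 RPKM) and the transcript C12orf36, now LINC01559 (1.29 against 5.88 RPKM), completed them.

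The largest differences in RPKM were in abundant RNAs, of which LCN2 alone reached 2-fold. FN1, which encodes fibronectin, a matrix protein bound by several integrins, had 1625 RPKM in the parent, 1786 RPKM in subclone 1 and 1034 RPKM in subclone 2. It was 1.73-fold lower in subclone 2 (1.71 to 1.75), a difference of -751.5 RPKM. Among lower genes a larger difference in RPKM was seen for the ferritin light chain FTL, with 13183 against 12257 RPKM, though its log2 ratio of -0.11 became 0.020 after division by ACTB and 0.012 after division by GAPDH. CAV1, the caveola protein caveolin-1, had 2449, 2554 and 1809 RPKM and was 1.41-fold lower (1.39 to 1.43). In FN1 and CAV1 the parent was near subclone 1. AGR2, a protein disulfide isomerase of secretory epithelia, had 578, 947 and 1355 RPKM, 1.43-fold higher in subclone 2 (1.38 to 1.49). LCN2, the iron-siderophore binding lipocalin, had 37.4, 269 and 543 RPKM, 2.02-fold higher (1.84 to 2.21). Both AGR2 and LCN2 stood in the order parent, subclone 1, subclone 2. The other large differences were those of FTH1, the ferritin heavy chain (3931 against 3483 RPKM), MTRNR2L2 (2462 against 1929 RPKM), the ribosomal RPS27 (2594 against 3037 RPKM), the calcium-binding S100A4 (2024 against 2336 RPKM) and MDK, the growth factor midkine (916.5 against 1200 RPKM).

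NAA11, an N-acetyltransferase paralog of restricted expression, was the gene at 0 in subclone 1 with the most reads in subclone 2. It had 0.575 RPKM in the parent (4 reads), none in subclone 1 and 4.37 RPKM in subclone 2 (32 reads). Against the 3 reads that a count of 0 allows, subclone 2 was at least 10.4-fold higher. In all, 12 of the higher genes were at 0 in subclone 1 and 12 of the lower genes at 0 in subclone 2. The other genes at 0 with the highest RPKM in the opposite subclone were short RNAs, with at most 3 reads where reads could be recovered, and the cystatin CST1, with 7 reads in subclone 1 and 0 in subclone 2. Small nucleolar RNAs contributed 8 higher and 5 lower genes of 33, against 132 and 128 of 10914 protein-coding genes, and at their short lengths a single read of SNORA67 stood for 1.54 RPKM.

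The parent did not choose the genes that differ between the subclones, other than through the mean RPKM. Of the 161 higher genes, the parent was within 1.5-fold of subclone 1 only for 50, of subclone 2 only for 35, of both for 5 and of neither for 71. For the 158 lower genes these numbers were 42, 39, 1 and 76. The parent lay between the subclones for 76 of the higher genes, below both for 50 and above both for 35. For the lower genes it lay between them for 59, below both for 47 and above both for 52. The parent was thus near neither subclone for the largest group of both sets. SPARC, TF and THBS3 are examples of a high subclone 1 with the parent near subclone 2, and FGF13 of a low subclone 1. In CXCR7 and TAGLN subclone 2 was low and in SPINK1 and RAMP1 high, with the parent near subclone 1.

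Genes that the study tested by PCR as candidates of metastatic tropism, 21 targets in its primer list (LRBP1 there was taken as LTBP1), were compared as a panel. In 17 of them the mean RPKM was at least 1. HBEGF was past 2-fold higher, SPARC and UGT8 past 2-fold lower, and the median log2 ratio was 0.33 against 0.03 for all genes. It was 0.06 over the members with a mean RPKM of 5 or more. The intervals lay above 1 for 8 members and below 1 for 3, against 11.3% and 8.36% of all genes. HBEGF, a growth factor that binds the EGF receptor, had 0.936, 0.911 and 2.40 RPKM in the parent, subclone 1 and subclone 2, from 10, 10 and 27 reads. Its fold of 2.63 had the interval 1.24 to 6.10. UGT8, an enzyme of galactosylceramide synthesis, had 1.999, 2.40 and 1.10 RPKM and was 2.19-fold lower (1.15 to 4.35). NT5E, the ectonucleotidase CD73 that makes adenosine, had 32.4, 39.1 and 57.1 RPKM. It was 1.46-fold higher in subclone 2 (1.33 to 1.61), a smaller difference than that of HBEGF but counted on 736 and 1103 reads. MMP1, an interstitial collagenase, had 10.5, 7.09 and 11.3 RPKM and was 1.59-fold higher (1.17 to 2.19). ANGPTL4, a secreted lipase inhibitor, stood at 24.4 RPKM in subclone 1 against 25.5 in subclone 2. Its interval of 0.867 to 1.26 held 1, as did those of ID1, LTBP1, ANP32E and the chemokine IL8 (CXCL8). The other members past their interval were DSC2, FERMT1 and PTGS2, higher by log2 ratios of 0.36, 0.44 and 0.33, and IL13RA2, with -0.27. EPCAM, ITGB8, PTN and TFCP2L1 had at most 6 reads in either subclone and stayed outside the 11370 genes.

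**Figure D3:**
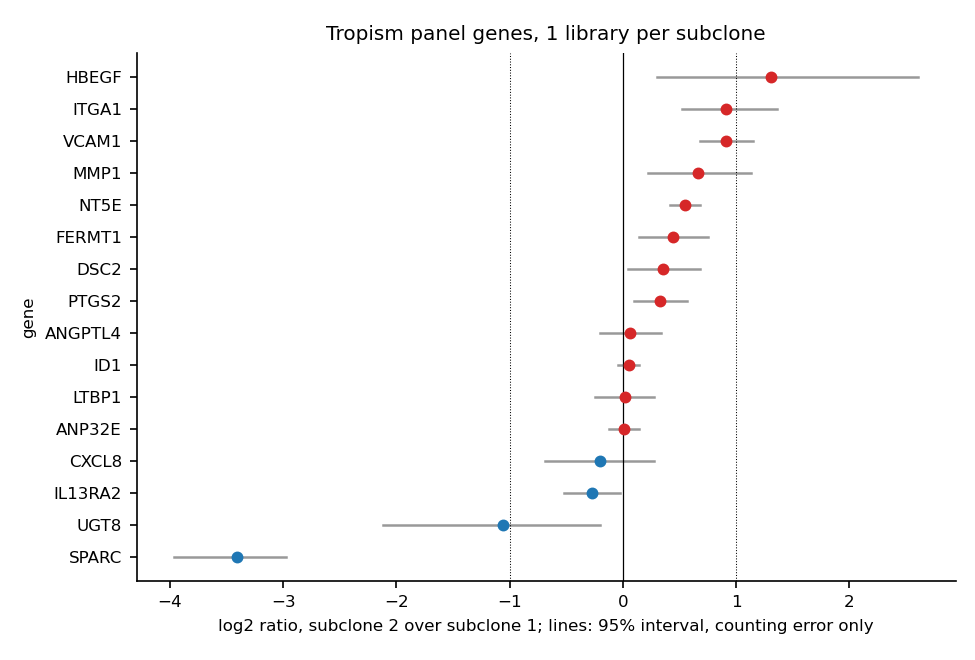
Log2 ratios of subclone 2 over subclone 1 (RPKM plus 0.1) for 16 of the 17 panel genes that passed the RPKM filter; lines are exact 95% intervals of the fold and cover counting error only. HBEGF, ITGA1 and VCAM1 have the highest ratios and SPARC, at -3.40, lies apart from the rest.

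Matricellular, collagen and mesenchymal genes were lower in subclone 2 more often than higher, unlike the 11 genes of laminins and basement membrane, with a median log2 ratio of 0.13 and 5 intervals above 1 against 2 below. Of the 10 matricellular genes 3 were past 2-fold lower and 0 higher, with a median log2 ratio of -0.42, and 5 intervals lay below 1 against 2 above. Beside SPARC the 3 were THBS3, a thrombospondin (11.2, 23.8 and 10.6 RPKM), and WISP1, a CCN family protein (4.89, 2.30 and 0.856 RPKM). The other SPARC family gene that passed the RPKM filter was higher in subclone 2, with a log2 ratio of 0.76. Of 9 collagens 1 was 2-fold lower and 0 higher, the median was -0.51, and 6 intervals lay below 1 and 0 above. COL3A1, a fibrillar collagen of stroma, had 4.42, 2.21 and 0.463 RPKM and was 4.78-fold lower in subclone 2 (2.53 to 9.80). Of 16 genes of mesenchymal transition, 3 were 2-fold lower and 0 higher, the median was -0.43, and 11 intervals lay below 1 against 2 above. These 3 were MMP2, a gelatinase (12.7, 3.79 and 0.775 RPKM), TAGLN, the actin-binding transgelin (1.84, 1.79 and 0.403 RPKM), and ZEB2, a repressor of E-cadherin (2.0005, 5.21 and 2.40 RPKM). VIM, the intermediate filament vimentin, was almost level, with 5.04 and 5.12 RPKM in subclones 1 and 2. Among 13 integrin genes, ITGB3, the beta3 chain of the vitronectin receptor, was the 1 past 2-fold. It had 0.819 RPKM in the parent, 2.57 RPKM in subclone 1 (58 reads) and 0.216 RPKM in subclone 2 (5 reads), 11.9-fold lower in subclone 2 (4.81 to 38.0). The RGD-binding receptors had 3 of 4 intervals below 1 and 0 above, while ITGA1 was the highest of the list. Lysyl oxidase, LOX, which cross-links collagen, had 3.74, 17.0 and 6.42 RPKM and was 2.65-fold lower (2.20 to 3.21).

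Junction genes of epithelium tended the other way. The 26 genes of epithelial junctions had a median log2 ratio of 0.36, with 1 gene at least 2-fold higher and 1 lower, and 12 intervals above 1 against 4 below. The 14 tight junction genes among them had a median of 0.56. CLDN1, a barrier-forming claudin, had 0.774, 5.84 and 12.7 RPKM and was 2.17-fold higher in subclone 2 (1.69 to 2.80), in contrast to CLDN2. CDH1, which encodes E-cadherin, had 2.08, 8.97 and 12.3 RPKM, with an interval of 1.14 to 1.65. CDH2, N-cadherin, had 43.9, 58.3 and 49.0 RPKM, with an interval of 0.773 to 0.916.

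Hepatocyte genes did not differ in a single direction. Of 22 liver-enriched transcription factors 2 were at least 2-fold higher and 0 lower, the median log2 ratio was 0.29, and 13 intervals lay above 1 and 0 below. FOXA1, a pioneer factor of liver and other endoderm, had 7.63, 8.96 and 21.7 RPKM and was 2.43-fold higher in subclone 2 (1.97 to 3.00). PROX1, a factor of hepatoblasts and of lymphatic endothelium, had 3.17, 0.773 and 2.47 RPKM, 3.19-fold higher in subclone 2 than in subclone 1 (1.59 to 6.95). HNF4A, a nuclear receptor that controls many hepatocyte genes, had 11.7, 11.9 and 16.01 RPKM, with an interval of 1.11 to 1.65. The secreted proteins were split, with 2 of 18 at least 2-fold higher and 4 lower, and a median of -0.25. TF had 5.71, 30.3 and 5.88 RPKM and was 5.15-fold lower in subclone 2 (3.64 to 7.46). FGB, a fibrinogen chain (14.5 against 5.60 RPKM), SERPINA3, antichymotrypsin (3.86 against 1.56 RPKM), and HAMP, the iron hormone hepcidin (6 reads against 1, an interval that holds 1), were the other lower ones. ITIH2 and RBP4, the retinol carrier (1.15 against 3.598 RPKM), were higher. ALB, albumin, had 2.46, 49.5 and 68.8 RPKM, so that both subclones were far above the parent and differed from each other by 1.39-fold (1.24 to 1.56). AFP, the fetal serum protein used as a hepatoma marker, had 4.16 and 4.27 RPKM.
The 9 apolipoprotein and lipoprotein assembly genes held 1 gene at least 2-fold higher and 3 lower, with a median of -0.12 that became 0.0027 after division by ACTB. APOB, the structural protein of VLDL, had 0.2997, 1.23 and 4.17 RPKM, with 80 reads in subclone 1 and 278 in subclone 2, a fold of 3.39 (2.63 to 4.404). APOE, a ligand of lipoprotein receptors, had 0.546, 4.61 and 0.692 RPKM and APOC1, an inhibitor of lipoprotein uptake, 42.3, 35.5 and 12.3 RPKM. APOE was 6.66-fold lower in subclone 2 on 26 and 4 reads (2.31 to 26.3) and APOC1 2.89-fold lower (1.84 to 4.66). The apolipoproteins thus differed in opposite directions between the subclones.

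**Figure D4:**
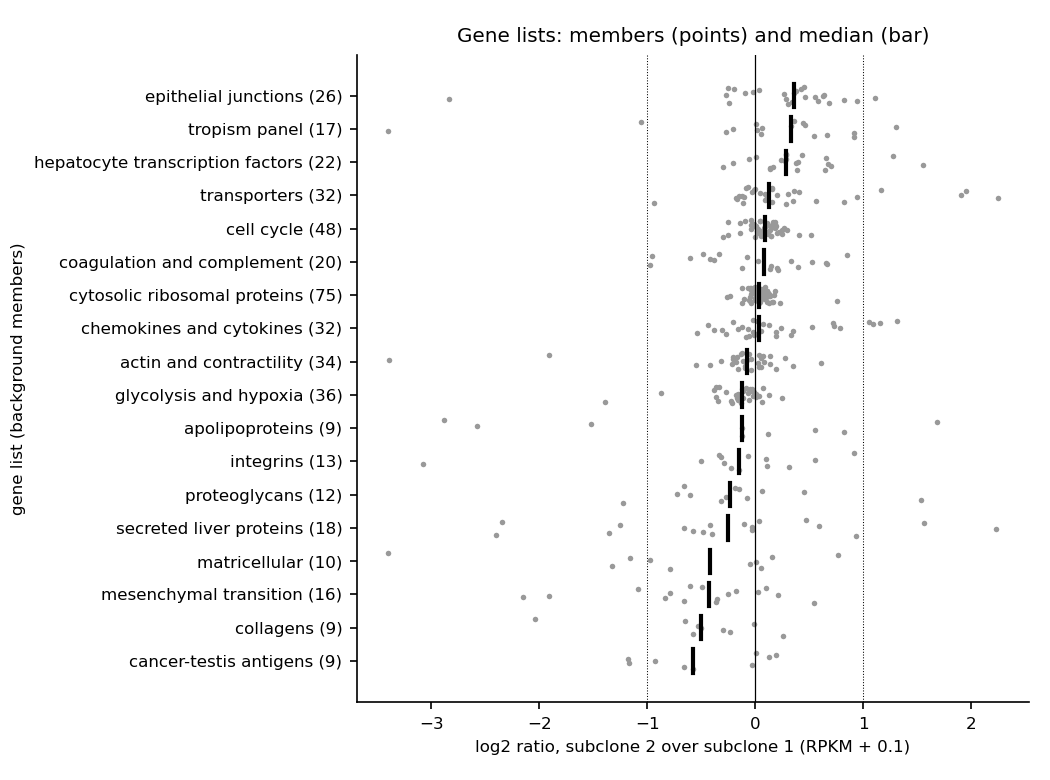
Log2 ratios of subclone 2 over subclone 1 (RPKM plus 0.1) for the members of 18 gene lists that passed the RPKM filter; points are genes, bars the list medians, and numbers in brackets the members shown. Medians run from 0.36 for epithelial junctions to -0.57 for cancer-testis antigens, and the points of most lists straddle 0.

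Secreted signals of inflammation included several higher genes. Of 32 chemokine, interleukin and receptor genes 4 were past 2-fold higher and 0 lower, with a median log2 ratio of 0.03, the value of all genes, that became -0.0024 after centring on the latter. The 4 were all chemokines. CXCL5, which attracts neutrophils, had 38.4, 105 and 217 RPKM, from 427, 1196 and 2541 reads, and was 2.07-fold higher in subclone 2 than in subclone 1 (1.93 to 2.22). CXCL3, another ligand of CXCR2, had 1.34, 2.42 and 6.17 RPKM. CCL20, the ligand of CCR6, had 8.12, 12.2 and 26.1 RPKM and CX3CL1, a membrane-bound chemokine, 0.135, 1.18 and 2.75 RPKM. All 4 stood in the order parent, subclone 1, subclone 2 from low to high. CXCL1, a close relative of CXCL3, did not share this, with 21.9 and 21.6 RPKM in the subclones, and IL8 had 20.5 and 17.7 RPKM. MMP7, the epithelial protease matrilysin, had 288, 199 and 408 RPKM and was 2.05-fold higher (1.91 to 2.21). TSPAN8, a tetraspanin of epithelia, had 15.8, 49.0 and 101 RPKM and was 2.07-fold higher (1.78 to 2.40). ERBB3, the neuregulin receptor, had 5.80, 17.6 and 35.4 RPKM and was 2.01-fold higher (1.80 to 2.25).

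In genes of lymphatic spread and homing, 1 of 11 was at least 2-fold lower, CXCR7, and 0 were higher, with a median of 0.02 that became -0.01 after centring. The receptor KDR had 1.36, 1.93 and 3.08 RPKM, and its ligand VEGFA 24.6, 42.4 and 32.9 RPKM. Of TGF-beta and BMP genes 3 of 32 were lower and 1 higher. INHBA, the activin beta A chain, had 1.43, 2.99 and 0.292 RPKM (14, 30 and 3 reads) and was 10.3-fold lower in subclone 2 (3.19 to 52.5). GDF15, a stress-induced member of the family, had 7.85, 6.22 and 14.7 RPKM and was 2.37-fold higher (1.58 to 3.62). Among 38 Wnt and YAP genes the 2 that were lower were SOST and WNT5A, a ligand of non-canonical signalling (20.01, 7.37 and 3.25 RPKM). Of 9 cancer-testis antigens 2 were lower and 0 higher, with a median of -0.57. Among the alternative settings this median rose as high as -0.03. The 4 MAGE and GAGE genes of the list had a median of 0.07, and the other 5 a median of -0.66. MAGEC2 had 3.77, 18.0 and 7.90 RPKM, and PRAME 0, 6.49 and 2.82 RPKM. Both had their highest level in subclone 1.

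Transporters included several higher genes, 4 of 32 and 0 lower, with 14 intervals above 1 against 3 below. Of 16 amino acid transporters 3 were at least 2-fold higher and 0 lower: SLC43A1, SLC7A2 (2.76, 0.143 and 0.837 RPKM) and the glycine transporter SLC6A9 (2.11, 1.29 and 3.01 RPKM). All 3 were lowest in subclone 1. ABCB4, a phospholipid transporter of bile, had 1.01, 0.490 and 2.71 RPKM and was 5.53-fold higher in subclone 2 (2.70 to 12.8). Of 19 ATF4 and unfolded protein response genes 2 were higher and 0 lower, with a median of 0.29. They were PHGDH, the entry enzyme of serine synthesis (14.8, 3.22 and 6.60 RPKM), and ATF3 (1.75, 2.31 and 5.58 RPKM). The 36 genes of glycolysis and hypoxia had 1 lower gene, LOX, and 0 higher. Their median was -0.12, with 17 intervals below 1 and 0 above. It became 0.0050 after division by ACTB and -0.0031 after division by GAPDH. For 34 actin and contractility genes the median of -0.08 likewise became 0.04 with either divisor, and MYL9 and TAGLN were the 2 lower genes. GAPDH is itself a glycolytic enzyme and ACTB an actin. Division of a list by a gene of its own class takes out any shift they share, so it cannot show whether the list differed. The 75 cytosolic ribosomal proteins (median 0.04), 48 cell cycle genes (0.09) and 37 oxidative phosphorylation genes (0.07) had 0 members past 2-fold in either direction.

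Markers of cell types other than the carcinoma were at low levels or at 0 for most members, with exceptions. Of 14 fibroblast markers 4 had a mean RPKM of at least 1, and these summed to 37.3 RPKM in subclone 1 and 28.7 RPKM in subclone 2. These 4 were LUM (117 and 105 reads), COL6A3 (326 and 223 reads), DCN (47 and 30 reads) and COL3A1 (56 and 12 reads). The defining collagen COL1A2 had 1 read in subclone 1 and 0 in subclone 2, and COL1A1 had 11 and 1. Of 13 endothelial markers 3 passed, with sums of 12.7 and 8.29 RPKM, of which PECAM1 made up 9.81 and 4.46 RPKM, while CDH5 had 1 and 0 reads and VWF 1 read in each. Of 14 leukocyte markers 2 passed, nearly all of it CD68, which other cells express too, and PTPRC had 0 reads in both subclones. The part of such cells in the lower collagens and PECAM1 was not tested. The hepatocyte and hepatoma markers KRT8 (1641 and 1742 RPKM), KRT18 (1075 and 1048 RPKM) and HNF4A were present in both subclones, whereas APOA1 had 3 and 2 reads, SERPINA1 4 and 1, TTR 0 and 1 and ASGR1 1 and 0.

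Along the chromosomes the ratios were even except on chromosome 2 and in 1 run of genes on chromosome 3. Gene order was taken from RefSeq, which placed 11345 of the 11370 genes. The 739 genes of chromosome 2 had a median log2 ratio of -0.17, and 25.2% of them lay above 0. On the other 22 chromosomes the medians ran from -0.01 to 0.11 and the share above 0 from 47.6% to 69.3%. In windows of 25 neighbouring genes, 95.3% of 10780 medians were within 0.2 of 0. Medians of at most -0.3 occurred in 3 runs, all on chromosome 2: from NRBP1 to YIPF4 (25 genes), from FAM171B to C2orf47 (35 genes) and from RQCD1 to LOC728323 (111 genes). The lowest window, from GLB1L to SLC19A3, had a median of -0.41 with 4 of 25 genes above 0. Medians of at least 0.3 occurred in 1 run, of 42 genes on chromosome 3 from RPUSD3 to BTD, where the highest window had 21 of 25 genes above 0. In that window both subclones lay below the parent, with medians over it of -0.68 in subclone 1 and -0.41 in subclone 2. Over the parent, the median of chromosome 2 was -0.13 in subclone 1 and -0.31 in subclone 2. FN1, COL3A1, CXCR7, NEU4 and ZEB2 lie on chromosome 2, with log2 ratios of -0.79, -2.04, -2.51, -2.19 and -1.08. All of these lay further from 0 than the median of their chromosome. RAMP1, APOB and CCL20 lie there too but went the other way, with log2 ratios of 1.93, 1.68 and 1.09. Among the 739 genes of chromosome 2, 15 fell by 2-fold or more in subclone 2 and 8 rose by as much.
Among 11320 pairs of neighbouring genes, 19 had both members at least 2-fold different in the same direction, 12 higher and 7 lower, and 7 in opposite directions. They included APOE and APOC1 on chromosome 19, SERPINA5 and SERPINA3 on chromosome 14, CXCL5 and CXCL3 on chromosome 4, and TFF2 and TFF1 as well as BACE2 and TMPRSS2 on chromosome 21. As strand and the treatment of overlapping genes are not given in the sources used here, reads of close neighbours could not be told apart.

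**Figure D5:**
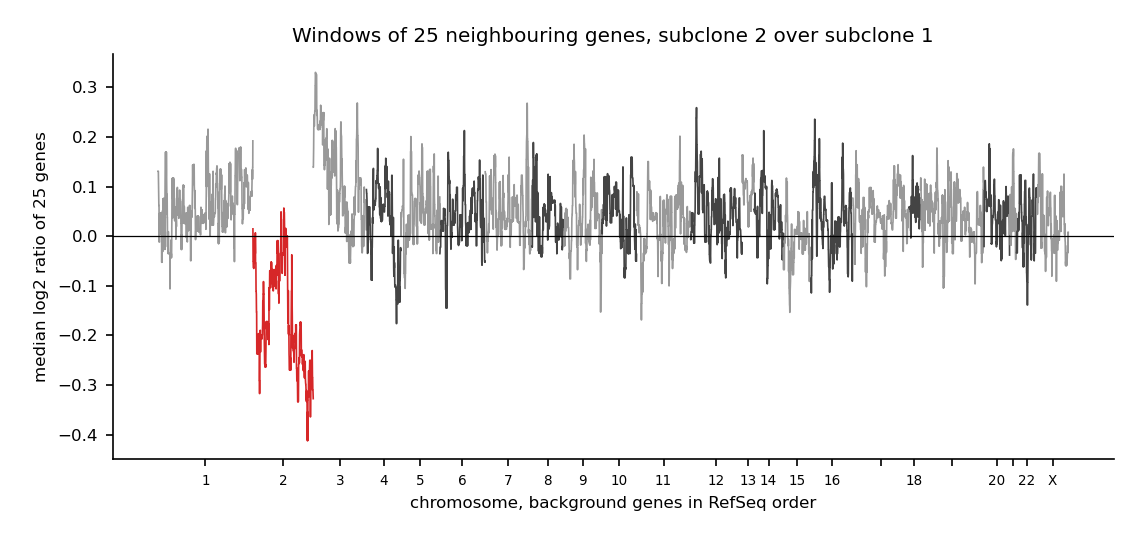
Median log2 ratio of subclone 2 over subclone 1 in sliding windows of 25 neighbouring genes, ordered along chromosomes 1 to 22 and X; chromosome 2 is drawn in red and the others in grey shades. The windows of chromosome 2 descend to -0.41 near its end, and the first windows of chromosome 3 reach 0.33.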

How the data were processed

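Messenger RNA of 3 cultured lines (1 TruSeq library each of the parent, subclone 1 and subclone 2) was analysed, grouped by the sample titles. The authors deposited RPKM values by Entrez gene and symbol. The submitters' processing notes name the build hg19; aligner, counting tool, annotation and strand are not given in the sources used here. Library totals were recovered from the step of low RPKM, and the reads of a gene at the shortest length, from 0.5 times the median to 1.5 times the longest GENCODE transcript, that gave whole reads (within 0.0005) in all libraries, so reads can be understated. The recovery was tested on simulated data. Log2 ratios used a pseudocount of 0.1, over genes whose RPKM averaged 1 or more.
The genes named were the 4 markers, the 15 highest and lowest ratios with at least 5 RPKM in the higher subclone, the 5 largest RPKM differences and the 5 highest genes at 0 in the other subclone per direction, up to 6 members past 2-fold and defining members of each of 45 lists, and the 21 panel genes, of which 1 is not reported here. The panel at first also held FSCN1, which was dropped because the primer list does not name it. CXCL1, KDR, VEGFA, CDH1, CDH2, VIM, OASL, USP18 and the neighbouring gene pairs and motifs were chosen after their values were seen. Members and lists were chosen with earlier results of these data known. No test was run, since each line has 1 library. Alternatives were other pseudocounts (0.01, 1), scalings, filters and thresholds. RefSeq (GRCh38.p14) gave names, gene order and promoters, and held 99.4% of the gene numbers. Python 3.11.15, numpy, pandas and scipy were used.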

Additional observations from a re-analysis of the deposited data

Results flagged for a closer look

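In 6 named genes the subclones lay at least 2-fold from the parent in opposite directions, each on 1 library per line, and the difference was not tested. In 5 of them subclone 1 was above and subclone 2 below the parent: subclone 2 over subclone 1, on the log2 scale, came to -2.83 for CLDN2, -5.32 for CST1 (0 reads in subclone 2), -2.98 for INHBA, -3.08 for ITGB3 and -3.39 for MYL9. In NAA11, at 0 reads in subclone 1, subclone 2 was above the parent, with a log2 ratio of 5.48 over subclone 1. The ratios of CST1 and NAA11 depend on the pseudocount, as 1 library had no reads. Reads in the parent were 2 for CST1, 4 for NAA11, 8 for MYL9, 14 for INHBA, 18 for ITGB3 and 101 for CLDN2. For CST1 the counting interval of the parent, 0.138 to 4.12 RPKM, held the subclone 1 level of 3.88 RPKM. The parent interval overlapped both subclone intervals for INHBA (0.784 to 2.41 against 2.02 to 4.27 and 0.0602 to 0.853 RPKM). For NAA11 it overlapped that of subclone 1 (0.157 to 1.47 against 0 to 0.517 RPKM). For MYL9 it overlapped that of subclone 2 (0.635 to 2.90 against 0.108 to 1.53 RPKM). The same held for ITGB3 (0.486 to 1.29 against 0.0702 to 0.505 RPKM). Only for CLDN2 did the parent interval lie apart from both.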

How the results depend on the processing

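The 4 marker ratios stayed within their counting intervals under all 7 alternatives. The 161 higher and 158 lower genes became 80 and 77 with a pseudocount of 1, 842 and 902 with no filter, 43 and 46 at a mean RPKM of at least 5, and 540 and 467 at 1.5-fold, in each case by construction of the setting. With a narrower band for calling the parent near, 27 of the higher genes had it near subclone 1 only, 15 near subclone 2 only and 119 near neither. Of 861 recomputed ratios of named genes 805 stayed within their intervals and 53 left them; 3 changed sign, all in abundant genes slightly lower in subclone 2: GAPDH became 0.0080 and FTL 0.020 after division by ACTB, and FTL 0.012 after division by GAPDH. Of 406 list medians 27 left the exact 95% binomial interval of the median as reported. All 46 chromosome medians taken after division by ACTB or GAPDH moved, as the divisor shifts every gene alike. With FSCN1 in the panel, an alternative chosen after seeing the data, its median was 0.20 over 18 genes and 4 intervals lay below 1. No paired analysis was possible because only 1 library stands for each of the 3 lines. The library totals leave wide intervals for genes at few RPKM, and no alternative replaces replicate cultures.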

Other observations

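Several genes outside the groups above differed between the subclones by 2-fold or more. HOXA13, a homeobox factor of distal limb and hindgut, had 4.16 RPKM in the parent, 1.81 RPKM in subclone 1 and 5.64 RPKM in subclone 2, 3.11-fold higher in subclone 2 (1.88 to 5.35). Among proteoglycans, VCAN, the matrix core protein versican, had 15.5, 1.03 and 3.17 RPKM, and SRGN, the granule proteoglycan serglycin, had 40.2, 26.6 and 11.3 RPKM. Subclone 2 was thus above subclone 1 for VCAN and below it for SRGN. The 51 interferon and antigen presentation genes held 3 higher and 2 lower genes with a median log2 ratio of 0.07. ISG20, an exonuclease (2.67 against 6.95 RPKM), OASL (3.92 against 8.34 RPKM) and USP18 (0.852 against 1.97 RPKM, an interval that holds 1) were higher, and IFI44 (2.37 against 0.729 RPKM) and IFI27 (14.4 against 6.36 RPKM) lower. Interferon-stimulated genes therefore differed in both directions. CYP2B6, a drug-metabolising cytochrome, had 1.35 RPKM in subclone 1 against 3.19 in subclone 2, and ADORA2A, an adenosine receptor, 1.34 against 2.86.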
